A study of Medicago truncatula with 4 samples.

Results

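BEL-like homeodomain genes encode plant transcription factors whose DNA-binding homeodomain carries a short loop extension, which places them with the KNOX proteins in the TALE group. A BEL-like protein and a KNOX protein bind each other, and the pair enters the nucleus and binds DNA as a heterodimer. In *Arabidopsis thaliana*, members of the family are known from ovule integument development (BELL1) and from the upkeep of the shoot meristem and the pattern of the inflorescence (PENNYWISE and POUND-FOOLISH), and in potato a mobile BEL transcript is known to promote tuber formation. What each *Medicago truncatula* member does is not assigned here.

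The family was followed in calli of *M. truncatula* R108 in which the transcription factor gene *MtWOX9-1* was overexpressed, and in wildtype R108 calli. The 13 BEL-like genes, of 52709 genes in the count table, were chosen by their deposited description alone, which reads BEL-like homeodomain protein, and no measured value enters that rule. The family itself was put forward with the values of these libraries known, so its counts and medians are descriptions. Both groups came from leaf explants of plants grown for 35 days in soil, kept for 30 days on medium with the auxin 2,4-D (18 μM) and the cytokinin BAP (2.22 μM) and for 5 more days on medium free of hormones. Calli were taken on day 35 of culture, and the libraries were made from polyA RNA, 2 biological replicates for *MtWOX9-1*-overexpressing and 2 for wildtype calli. The overexpressing plants carry the *MtWOX9-1* coding sequence from a pMDC32 plasmid, and wildtype plants are labelled as R108 alone. The labels give neither the promoter nor the number of independent transgenic lines, and they do not say that the replicates of a group came from different plants, so the spread between replicates may be partly technical.

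The library totals lay between 5241334 and 6666866 counts. A count of 0 therefore allows up to 0.450 and 0.469 CPM (counts per 1000000 counts of the library) in overexpressing replicates 1 and 2, and up to 0.495 and 0.572 CPM in wildtype replicates 1 and 2, taking 3 counts as the limit, which covers counting error only. *MtWOX9-1* itself had 7692 and 7634 counts in overexpressing calli, against 2 and 18 counts in wildtype calli, so all 4 libraries followed their labels. Replicates were not copies of each other, since the chi-square over genes per degree of freedom was 7.71 for the overexpressing pair and 6.80 for the wildtype pair, where sampling alone gives about 1. Gene lengths were not used, so levels are compared between libraries and not between genes.

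Of the 13 genes, 6 carry a numbered symbol of the *MtBELL1* series and 7 carry only the symbol *MtBELL* and are told apart by their IDs. According to the IDs they lie on 7 chromosomes, with 3 on chromosome 1, 3 on chromosome 4, 2 each on chromosomes 3 and 7, and 1 each on chromosomes 2, 5 and 8. The only pair with consecutive IDs is *MtBELL1-5* and the *MtBELL* gene MtrunA17Chr3g0141941 on chromosome 3. In these calli 9 of the 13 genes had at least 1 count and 8 had at least 10 counts in total, the minimum for the test. All 8 had lower counts in both overexpressing libraries than in either wildtype library after scaling, and 7 of the 8 fell in the quasi-likelihood test of edgeR (Benjamini-Hochberg adjusted p under 0.05, adjusted over all 24630 genes tested). None rose.

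**Figure D1:**
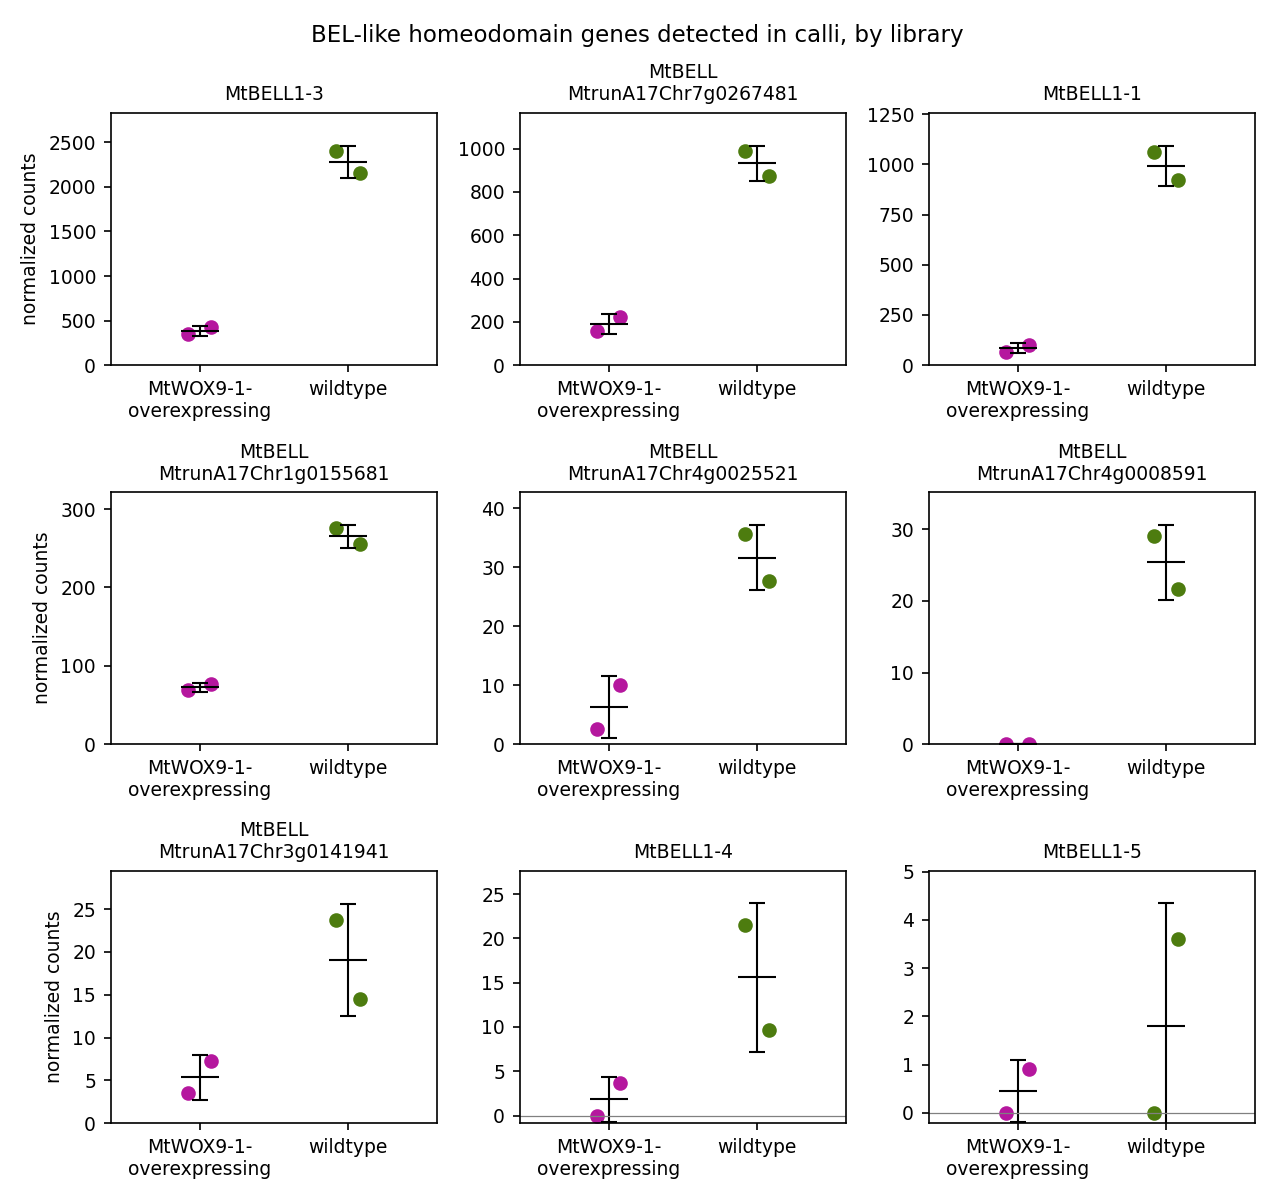
Normalized counts (vertical axis, each panel with its own scale) of the 9 BEL-like genes detected, for the 2 *MtWOX9-1*-overexpressing libraries (left, magenta) and the 2 wildtype libraries (right, green), with the mean and SD as bars. In 8 of the 9 panels both overexpressing points lie below both wildtype points, and *MtBELL1-5* is the panel where they overlap.

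*MtBELL1-3* (MtrunA17Chr1g0177751, Medtr1g057790 in the older annotation, chromosome 1) had the most counts of the family. It had 396 and 470 counts in overexpressing replicates 1 and 2, against 2236 and 1787 counts in wildtype replicates 1 and 2. The groups were far apart, since the lowest wildtype library held several times the counts of the highest overexpressing one. Normalized counts, meaning counts scaled to the mean effective size of the 4 libraries, were 387 ± 54.2 in overexpressing calli and 2279 ± 181 in wildtype calli (SD, n = 2 each). *MtBELL1-3* fell 5.89-fold, a log2 fold change of -2.56 (SE 0.16, 95% interval -2.97 to -2.14, adjusted p = 0.0026, edgeR). In RNA of whole calli, fewer cells that express a gene and less of its RNA per cell cannot be told apart, and this holds for every gene below.

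*MtBELL1-1* (MtrunA17Chr5g0403251, Medtr5g018860, chromosome 5) had the largest fold decrease among the 4 members with a mean of at least 100 normalized counts. Overexpressing calli had 75 and 113 counts of *MtBELL1-1*, and wildtype calli had 987 and 765. Each overexpressing library lay far below each wildtype library, at 84.2 ± 25.6 normalized counts in overexpressing calli and 992 ± 100.4 in wildtype calli (SD, n = 2 each). The decrease was 11.8-fold, a log2 fold change of -3.56 (SE 0.24, 95% interval -4.17 to -2.94, adjusted p = 0.0026, edgeR).

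The *MtBELL* gene MtrunA17Chr7g0267481 (Medtr7g106320, chromosome 7) had 177 and 247 counts in overexpressing calli, against 918 and 726 counts in wildtype calli. Its overexpressing libraries differed more from each other, relative to their mean, than its wildtype libraries did, and they stayed below both. Normalized counts of this gene were 190 ± 47.9 in overexpressing calli and 931 ± 81.0 in wildtype calli (SD, n = 2 each), so the level fell 4.91-fold, with a log2 fold change of -2.30 (SE 0.21, 95% interval -2.83 to -1.76, adjusted p = 0.0034, edgeR). For the *MtBELL* gene MtrunA17Chr1g0155681 (Medtr1g023050, chromosome 1), 78 and 85 counts were found in overexpressing calli and 256 and 212 in wildtype calli. Here the replicates of each group lay close together. This gene had 72.8 ± 5.8 normalized counts in overexpressing calli and 265 ± 14.5 in wildtype calli (SD, n = 2 each) and the smallest decrease of the 4 well-counted members, 3.64-fold, with a log2 fold change of -1.87 (SE 0.14, 95% interval -2.22 to -1.51, adjusted p = 0.0027, edgeR). These 4 genes passed the threshold under all 10 alternative settings tried.

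The other 4 tested members had few counts in both groups. The *MtBELL* gene MtrunA17Chr4g0008591 (Medtr4g019450, chromosome 4) had 0 counts in both overexpressing libraries, against 27 and 18 counts in wildtype calli, which is 4.45 and 3.43 CPM. It was detected only in the wildtype libraries, and taking 3 counts per library as the limit its level was at least 9.47-fold lower in overexpressing calli (adjusted p = 0.0069, edgeR). This call held under all 10 alternative settings. It passed the minimum of 10 counts only through its wildtype counts. A bound of this kind takes the mean of the other group as exact and leaves out its counting error, here and below.

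The *MtBELL* gene MtrunA17Chr4g0025521 (Medtr4g051532, chromosome 4) had 3 and 11 counts in overexpressing calli and 33 and 23 counts in wildtype calli. The overexpressing libraries differed several-fold from each other, and both were below the wildtype libraries. Its log2 fold change was -2.31 (SE 0.58, 95% interval -3.81 to -0.82, adjusted p = 0.0325, edgeR). That call was lost with DESeq2 (adjusted p = 0.0838), with a minimum of 1 count (adjusted p = 0.0541, edgeR) and with a replicate block (adjusted p = 0.0743, edgeR). In all it was lost under 5 of the 10 alternative settings, among them some that left out 1 library. The *MtBELL* gene MtrunA17Chr3g0141941 (Medtr3g112300, chromosome 3) had 4 and 8 counts in overexpressing calli, against 22 and 12 in wildtype calli. Its groups did not overlap but lay near each other, with 12 wildtype counts beside 8 overexpressing ones. Its log2 fold change of -1.81 (SE 0.53, 95% interval -3.18 to -0.44) just passed the threshold (adjusted p = 0.0496, edgeR), and DESeq2 gave an adjusted p of 0.241. In edgeR's test the call was also lost with DESeq2's size factors (adjusted p = 0.0502) and with library size only (adjusted p = 0.0598). A minimum of 1 count (adjusted p = 0.0695, edgeR) and a replicate block (adjusted p = 0.115, edgeR) lost it too. In all the call was lost under 8 of the 10 alternative settings, among them some that left out 1 library. This gene and MtrunA17Chr4g0025521 are therefore the least secure of the 7 decreases.

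*MtBELL1-4* (MtrunA17Chr8g0387321, Medtr8g098815, chromosome 8) did not pass the test. It had 0 and 4 counts in overexpressing calli and 20 and 8 counts in wildtype calli. Both overexpressing libraries were the lower ones, but the wildtype replicates themselves differed more than for the other tested members. Its log2 fold change was -3.05 with a wide 95% interval of -5.77 to -0.32 (SE 1.05, adjusted p = 0.0769, edgeR), and the ratio of the summed counts per effective library size, overexpressing over wildtype, was 0.112 with a counting interval of 0.0286 to 0.321. Without overexpressing replicate 2, the only overexpressing library with counts of this gene, the adjusted p was 0.0417 in edgeR's test, with the remaining library assumed to vary like the other group.

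The remaining 5 genes were at or near the detection limit. *MtBELL1-5* (MtrunA17Chr3g0141931, chromosome 3) had 0 and 1 counts in overexpressing calli and 0 and 3 counts in wildtype calli, and was not tested. Its neighbour in the order of the IDs, MtrunA17Chr3g0141941, had more counts in every library. *MtBELL1-6* (MtrunA17Chr7g0240371), *MtBELL1-7* (MtrunA17Chr1g0151681) and the *MtBELL* genes MtrunA17Chr2g0327021 and MtrunA17Chr4g0028701 had 0 counts in all 4 libraries. For these 4 genes expression was not detectable at this depth, which allows up to 0.450 to 0.572 CPM in a library.

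In edgeR's test 39.2% of the 24630 genes were called in either direction, 18.9% with a lower level in overexpressing calli. The share of lower calls among the tested BEL-like genes, 7 of 8, stood above that background. For 35.8% of all genes both overexpressing libraries lay below both wildtype libraries, which was so for 8 of 8 tested BEL-like genes. With DESeq2, 12.6% of the genes with an adjusted p were lower in overexpressing calli, and 5 of 8 BEL-like genes were. The median log2 fold change of the tested BEL-like genes was -2.44, with a range of -7.68 to -1.81, and the value at the lower end is a fitted one with 0 counts in overexpressing calli. Placing that gene at its bound left the median at -2.44, which could not change since the gene stayed among the lower values. Over all genes tested the median was 0.039. *MtBELL1-4* and MtrunA17Chr4g0008591 each had fewer than 10 counts over the overexpressing libraries and entered the test through their wildtype counts, so these shares are of the genes that passed the minimum and not of all 13.

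**Figure D2:**
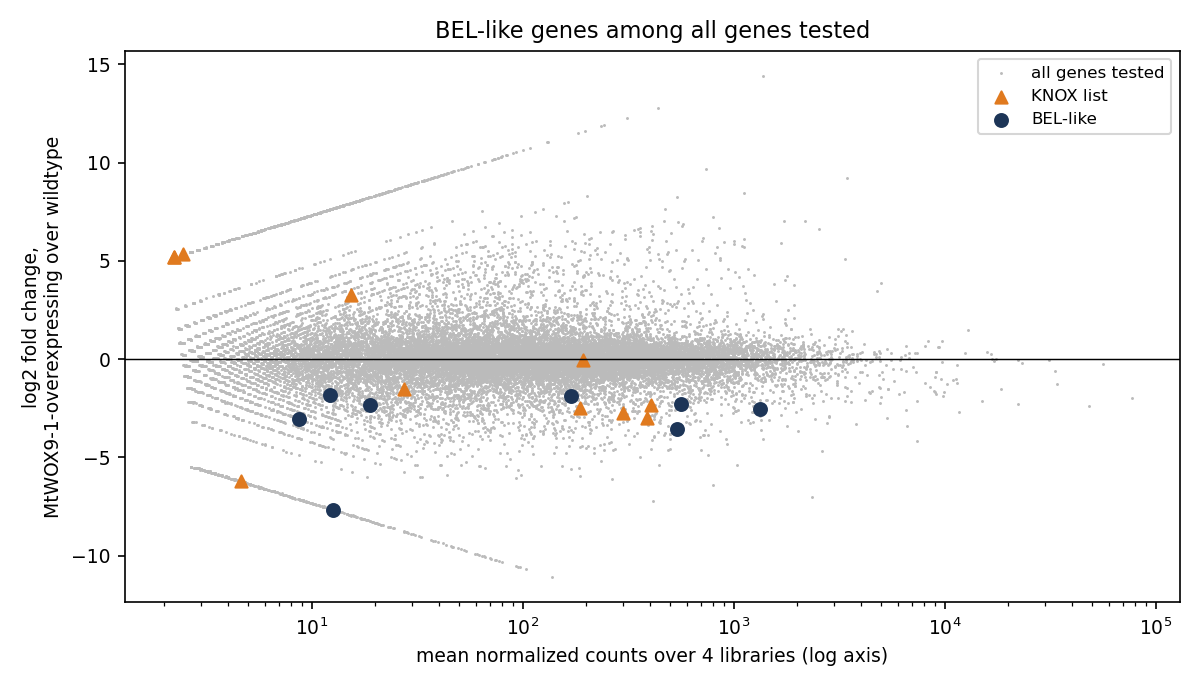
Log2 fold change, overexpressing over wildtype (vertical axis), against mean normalized counts over the 4 libraries (horizontal axis, log scale) for the 24630 genes tested (grey), the 8 BEL-like genes (dark circles) and the 11 KNOX list genes (orange triangles). All 8 BEL-like points lie below 0, and the straight outer lines of grey points are genes with 0 counts in 1 group.

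Summed over the 13 genes, BEL-like transcripts took 733 and 939 counts in overexpressing calli, against 4499 and 3554 counts in wildtype calli. Scaled to the library totals this was 110 and 147 CPM in overexpressing calli and 742 and 678 CPM in wildtype calli. The family sum was 6.10-fold lower in overexpressing calli by the means of normalized counts.

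The members did not keep the same shares of that sum, although *MtBELL1-3* did. *MtBELL1-3* made up 54.0% and 50.1% of the BEL-like counts in overexpressing calli and 49.7% and 50.3% in wildtype calli. *MtBELL1-1* took 10.2% and 12.03% in overexpressing calli, against 21.9% and 21.5% in wildtype calli, the largest shift of the family. The share of MtrunA17Chr1g0155681 went the other way, with 10.6% and 9.05% in overexpressing calli and 5.69% and 5.97% in wildtype calli. That of MtrunA17Chr7g0267481 was 24.1% and 26.3% in overexpressing calli and 20.4% in each wildtype library. For each of these last 3 genes the shares of the groups did not overlap. Such shares compare 1 gene with the family sum in the same library, so they do not depend on the scaling between libraries.

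Set against *MtBELL1-3* in the same library, there were 18.9 and 24.0 counts of *MtBELL1-1* per 100 counts of *MtBELL1-3* in overexpressing calli, and 44.1 and 42.8 in wildtype calli. The same ratio for MtrunA17Chr1g0155681 was 19.7 and 18.1 in overexpressing calli and 11.4 and 11.9 in wildtype calli. The most and the least decreased of the well-counted members moved in opposite directions relative to *MtBELL1-3*, which follows from its decrease lying between theirs. The ratio for MtrunA17Chr7g0267481, 44.7 and 52.6 in overexpressing calli and 41.1 and 40.6 in wildtype calli, changed the least relative to its wildtype value. No test of the difference between members was made.

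**Figure D3:**
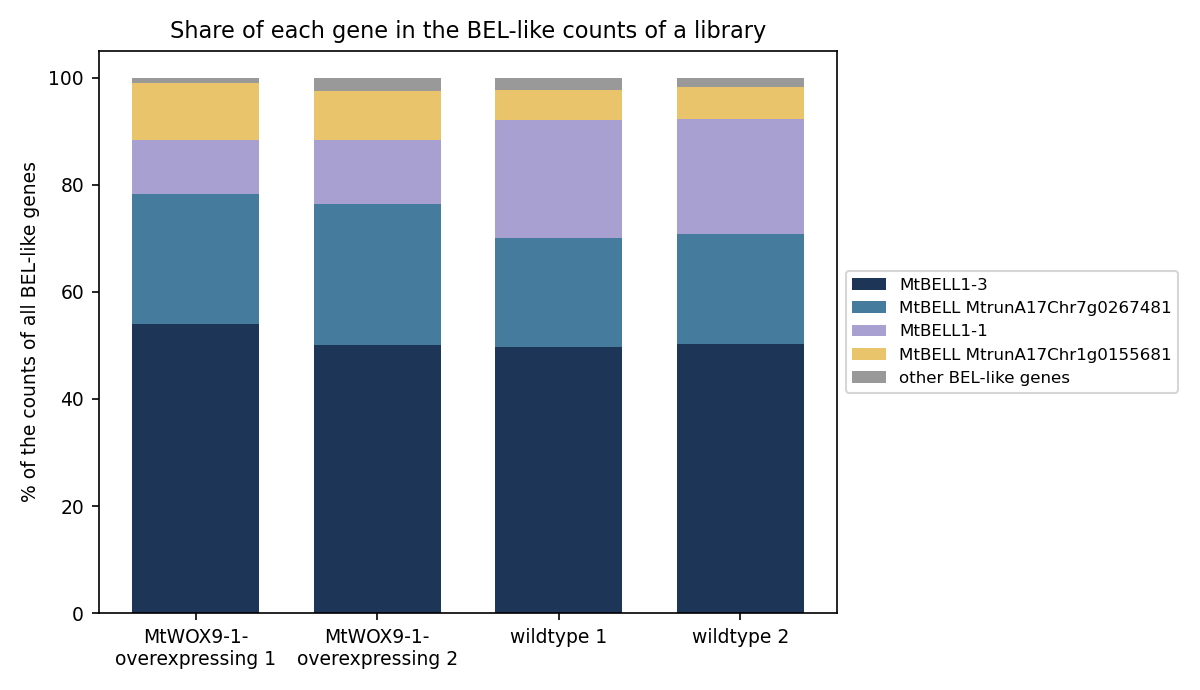
Share of each gene in the summed BEL-like counts of a library, in percent (vertical axis), for the 2 *MtWOX9-1*-overexpressing libraries (left) and the 2 wildtype libraries (right). The *MtBELL1-1* segment is 10.2% and 12.03% in the overexpressing libraries and 21.9% and 21.5% in the wildtype libraries, while *MtBELL1-3* takes about the same share in all 4.

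The members also varied together between replicates. Overexpressing replicate 2 lay above overexpressing replicate 1 in 7 of 8 tested BEL-like genes, against 49.7% of all genes tested, and wildtype replicate 1 lay above wildtype replicate 2 in 8 of 8, against 46.7% of all genes. MtrunA17Chr4g0008591, with 0 counts in both overexpressing libraries, was the exception in the overexpressing pair. Since the 8 genes were measured in the same 4 RNA samples, they are not independent measurements of the change.

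KNOX homeobox genes, the known partners of BEL-like proteins, were read from the same fit. The keyword list held 12 genes, of which *MtKTN* is described as a KNOTTED 1 binding protein and 11 as KNOX genes or proteins. Of the 11 tested, 6 fell, 4 rose (20.2% of all genes tested had a higher call) and 1 did not pass the test, with a median log2 fold change of -1.51. Higher calls in the KNOX list depended on the setting, with 4 in the reported fit, 0 with DESeq2, 0 with a minimum of 1 count, 0 without either overexpressing replicate, and 1 without wildtype replicate 1. The BEL-like genes had no higher call.

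Among the KNOX genes that fell are 4 class II genes well counted in wildtype calli. *MtKNOX3* had 84 and 107 counts in overexpressing calli and 751 and 476 in wildtype calli, a log2 fold change of -3.02 (adjusted p = 0.0029, edgeR). *MtKNOX9* had 79 and 96 counts in overexpressing calli and 557 and 364 in wildtype calli, a change of -2.73 on the log2 scale (adjusted p = 0.0029, edgeR). Their decreases lay between those of *MtBELL1-3* and *MtBELL1-1*. *MtKNOX4*, a gene needed for physical seed dormancy in *M. truncatula*, had 58 and 68 counts in overexpressing calli and 337 and 223 in wildtype calli (log2 fold change -2.49, adjusted p = 0.0032, edgeR). *MtKNOX5* had 167 and 131 counts in overexpressing calli and 736 and 464 in wildtype calli (log2 fold change -2.35, adjusted p = 0.0037, edgeR). In contrast, *MtKNOX10*, another class II gene, had 211 and 218 counts in overexpressing calli and 192 and 151 in wildtype calli and did not pass the test (log2 fold change -0.021, adjusted p = 0.913, edgeR). The sign of that value turned with the scaling, to 0.12 with library size as the only scaling, so no direction is given for *MtKNOX10*.

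The other KNOX genes had few counts. *MtKNOX2;MtKNAT1* had 16 counts in each overexpressing library and 41 and 31 in wildtype calli (log2 fold change -1.51, adjusted p = 0.0121, edgeR), and its adjusted p was 0.0949 with DESeq2 and 0.0524 without overexpressing replicate 1. *MtFCL1*, which acts in compound leaf development in *M. truncatula*, had 0 counts in both overexpressing libraries. It had 6 and 10 counts in wildtype calli (adjusted p = 0.0212, edgeR), a mean 3.45-fold above the limit of 3 counts per library. Its adjusted p was 0.0718 with DESeq2 and 0.0577 with a replicate block in edgeR's test. The 4 KNOX list genes that rose had few counts as well. *MtKNOX7* had 32 and 31 counts in overexpressing calli and 5 and 0 in wildtype calli (log2 fold change 3.26, adjusted p = 0.0333, edgeR), and leaving out wildtype replicate 2 gave 2.36, while leaving out wildtype replicate 1, with 0 wildtype counts left, gave 7.85. *MtKNOX1* and *MtKNOX8* had the same counts as each other in every library, 5 and 5 in overexpressing calli and 0 and 0 in wildtype calli (adjusted p = 0.0333 for each, edgeR). Their overexpressing mean was only 1.31-fold above the limit of 3 counts per library, a ratio that leaves out the counting error of that mean. Whether the same reads were counted under both IDs was not tested, and with *MtKNOX8* left out, an alternative chosen after seeing the data, 6 of 10 tested KNOX list genes fell and 3 rose, with a median log2 fold change of -1.93. *MtKTN* had 7 and 4 counts in overexpressing calli and 0 and 0 in wildtype calli (adjusted p = 0.0381, edgeR), a mean only 1.43-fold above the same limit. With DESeq2 the adjusted p was 0.0602 for *MtKNOX7* and 0.303 for *MtKTN*. In edgeR's test *MtKNOX7* did not pass without overexpressing replicate 1 (adjusted p = 0.106) or replicate 2 (adjusted p = 0.0990), where the other genes fell under the minimum of 10 counts, and without wildtype replicate 1 the adjusted p was 0.0588 for *MtKNOX1* and 0.0660 for *MtKTN*. These increases are therefore less secure than the decreases of the class II genes. *MtKNOX6*, with 0 and 0 counts in overexpressing calli and 0 and 4 in wildtype calli, was not tested.

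**Figure D4:**
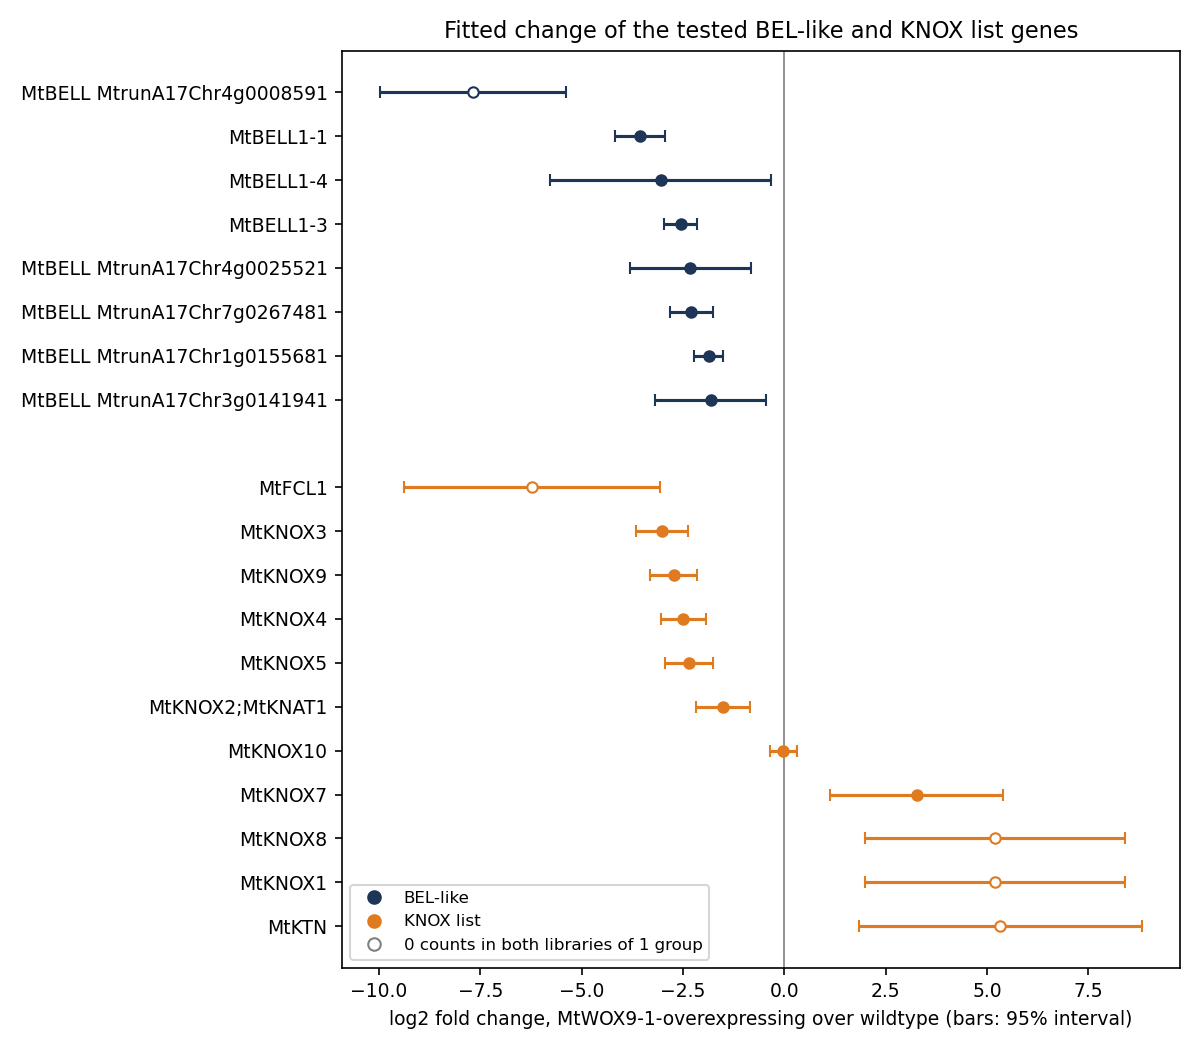
Fitted log2 fold change, overexpressing over wildtype (horizontal axis), with its 95% interval for the 8 tested BEL-like genes (dark) and the 11 tested KNOX list genes (orange), where open circles mark genes with 0 counts in both libraries of 1 group. The 8 BEL-like intervals end below 0, and the fitted values of the KNOX list lie on both sides, with *MtKNOX10* at -0.021.

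The BEL-like genes and the KNOX list were also set against each other within each library. The KNOX list took 664 and 681 counts in overexpressing calli, against 2625 and 1723 counts in wildtype calli. There were 1.10 and 1.38 BEL-like counts per KNOX list count in overexpressing calli and 1.71 and 2.06 in wildtype calli. Both overexpressing ratios lay below both wildtype ratios, but this rested on *MtKNOX10*. Without that gene, an alternative chosen after seeing the data, the ratios were 1.62 and 2.03 in overexpressing calli and 1.85 and 2.26 in wildtype calli, which overlap. Against the 4 class II genes that fell, chosen likewise, they were 1.89 and 2.34 in overexpressing calli and 1.89 and 2.33 in wildtype calli. The BEL-like sum and the sum of these 4 genes thus changed in nearly the same proportion. Since the 4 were picked because they fell, no conclusion is drawn from that likeness. Protein levels were not measured.

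Families that hold genes on which BEL-like and KNOX proteins are known to act in other plants were counted next. Gibberellin 20-oxidases act in gibberellin synthesis, gibberellin 2-oxidases inactivate gibberellins, and isopentenyltransferases make cytokinins. Of 4 tested gibberellin 20-oxidase genes 2 fell, 1 rose and 1 did not pass, of 11 tested gibberellin 2-oxidase genes 6 fell, 1 rose and 4 did not pass, and of 3 tested isopentenyltransferase genes 0 fell, 1 rose and 2 did not pass (edgeR, adjusted p under 0.05), beside 18.9% lower and 20.2% higher calls among all genes. Both gibberellin lists thus held genes called in either direction, and the median log2 fold change of the gibberellin 20-oxidases moved from -3.02 to -0.80 when genes with 0 counts in a group were placed at their bound. Chosen after their values were seen, *MtGA20ox1* had 0 and 0 counts in overexpressing calli and 50 and 62 in wildtype calli, at least 24.0-fold lower (adjusted p = 0.0041, edgeR), and *MtGA20ox6* had 34 and 21 counts in overexpressing calli and 0 and 0 in wildtype calli, at least 7.16-fold higher (adjusted p = 0.0095, edgeR). *MtIPT1*, also chosen after its values were seen, had 34 and 31 counts in overexpressing calli and 2 and 5 in wildtype calli (log2 fold change 2.82, adjusted p = 0.0120, edgeR), and without overexpressing replicate 1 its adjusted p was 0.0529. Leaving out wildtype replicate 1 gave a log2 fold change of 2.24, and leaving out wildtype replicate 2 gave 3.68. The 2 isopentenyltransferase genes that did not pass, *MtIPT5* and *MtIPT9*, are described as tRNA isopentenyl transferases, unlike *MtIPT1*. The other gibberellin 20-oxidase gene that fell, *MtMSD1;MtGA20ox;MtGA20ox3*, had 0 and 0 counts in overexpressing calli and 5 and 6 in wildtype calli (adjusted p = 0.0227, edgeR, and 0.171 with DESeq2). The gene of the gibberellin 2-oxidase list that rose, *MtGAOL15*, is described only as GA2-oxidase-like. So are *MtGAOL4* and *MtGAOL6* among the 6 that fell. *MtGAOL15* had 396 and 376 counts in overexpressing calli and 0 and 28 in wildtype calli (log2 fold change 4.41, adjusted p = 0.0157, edgeR, and 0.215 with DESeq2). Leaving out wildtype replicate 1 gave 3.35 for *MtGAOL15*, and leaving out wildtype replicate 2, with 0 wildtype counts left, gave 11.51. Neither *MtGAOL15* nor *MtMSD1;MtGA20ox;MtGA20ox3* kept its call in edgeR's test when either overexpressing replicate was left out. No gene matched the keywords for OVATE family proteins, which are known to bind BEL-like and KNOX proteins.

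Other genes matched by homeobox keywords give a further background for the family. Of the 52709 genes in the count table only 3789 carry a deposited symbol, so such a list may not hold every homeobox gene. Of 18 tested, 10 fell, 5 rose and 3 did not pass in edgeR's test, with a median log2 fold change of -1.12, against 7, 0 and 1 of the 8 BEL-like genes and their median of -2.44, beside 18.9% lower and 20.2% higher calls among all genes. The 5 that rose, named after their values were seen, were *MtHAT4*, *MtATHB2*, *MtHAT3*, *SHH1-like 2* and *MtWOX11*. Among the 10 that fell, *MtWOX4*, *MtCNA1* and *MtCNA2*, chosen likewise, were 24.2-fold, 14.6-fold and 9.36-fold lower in overexpressing calli (fitted values, edgeR). *MtBELL1-1* fell 11.8-fold in the same fit, so decreases of this size were not confined to the BEL-like genes. In edgeR's test *SHH1-like 2* (adjusted p = 0.0201) was no longer called without wildtype replicate 1 (adjusted p = 0.0857), overexpressing replicate 1 (0.0812) or overexpressing replicate 2 (0.0552), DESeq2 gave it 0.125, and *MtATHB2* (adjusted p = 0.0158) was no longer called without overexpressing replicate 1 (0.0579). Of the BEL-like, KNOX and other homeobox lists the BEL-like genes had the lowest median, and no test of that difference was made.

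Marker lists of other cell types moved with the groups. All 10 root cap genes rose, with summed normalized counts of 8967 and 13682 in overexpressing calli and 32.3 and 189 in wildtype calli, and each of the 10 had counts in at least one wildtype library except *MtRC4*, at 0 in both. Of 6 embryo genes 5 rose and 1 fell, with sums of 1801 and 3049 in overexpressing calli and 298 and 330 in wildtype calli. Among all genes tested 20.2% had a higher and 18.9% a lower call in edgeR's test. *MtPM25* and *MtLEA4-5* were at 0 in both wildtype libraries, and *MtLEA* was the embryo list gene that fell. These marker genes were named after their values were seen. No gene matched the leaf mesophyll keywords. The part of a different make-up of cells in the decreases of the BEL-like genes was not tested.

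The genes most like *MtBELL1-3* over the 4 libraries, among 1731 tested genes with a deposited symbol, were *MtBG20;MtBGLU1*, described as a beta-1,3-glucanase, *MtD53b* and *MtT5L2*, described as a TMO5-like bHLH transcription factor. Likeness was the Euclidean distance between log2 normalized counts plus 1, each gene centred on its mean, and it was 0.140, 0.147 and 0.162 for these genes in that order. Their log2 fold changes were -2.70, -2.67 and -2.53, beside -2.56 for *MtBELL1-3*. Of the other BEL-like genes MtrunA17Chr7g0267481 was the nearest, at a distance of 0.299, with 14 genes of other families nearer, while MtrunA17Chr1g0155681 stood at 0.713, with 95 nearer. In 4 libraries of 2 groups this distance mostly reflects the size of the change between the groups.

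The decreases of the BEL-like genes kept their direction throughout. No member reversed its sign under any of the settings tried, and the 4 well-counted members together with MtrunA17Chr4g0008591 passed the threshold under each of them. When each library was left out in turn, the log2 fold change of *MtBELL1-3* lay between -2.71 and -2.42, that of *MtBELL1-1* between -3.91 and -3.27, that of MtrunA17Chr7g0267481 between -2.58 and -2.06 and that of MtrunA17Chr1g0155681 between -1.95 and -1.78. For the low-count genes MtrunA17Chr4g0025521 and MtrunA17Chr3g0141941 it ranged from -3.52 to -1.65 and from -2.40 to -1.38. For *MtBELL1-4* it ranged from -6.93 without overexpressing replicate 2, which leaves 0 counts in overexpressing calli, to -2.07 without overexpressing replicate 1. With 2 libraries in each group an exact two-sided permutation test of 1 gene cannot give a p below 0.333, so each p rests on the model fitted across all genes.

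**Figure D5:**
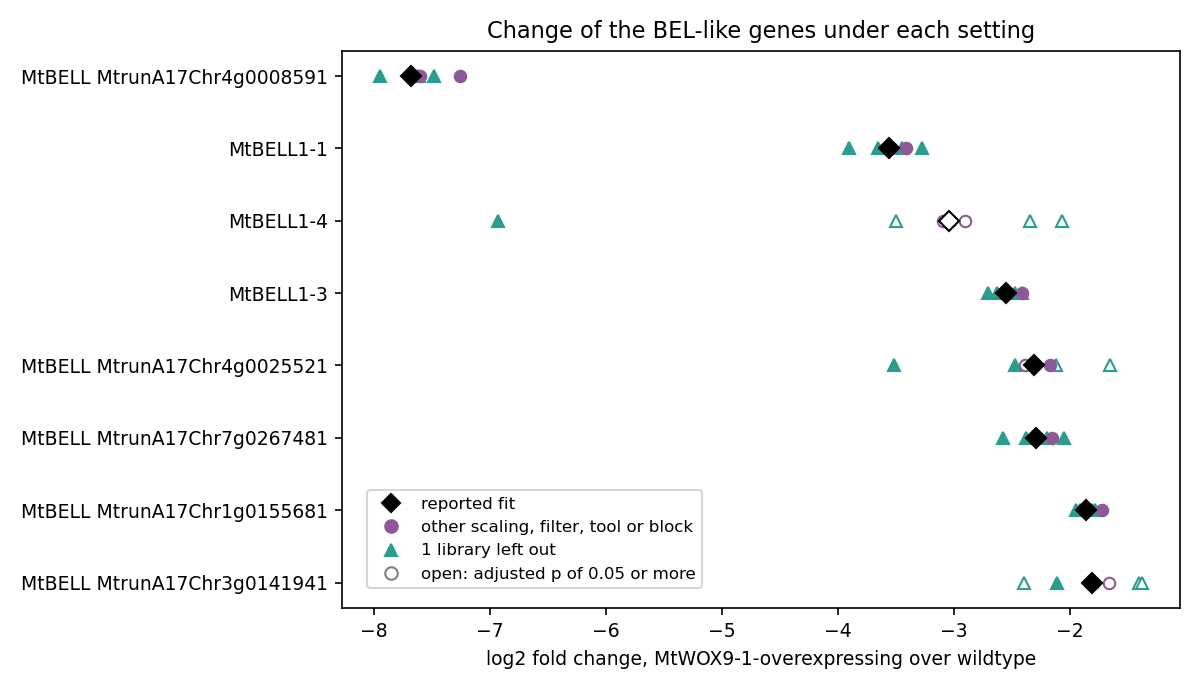
Log2 fold change of the 8 tested BEL-like genes, overexpressing over wildtype (horizontal axis), in the reported fit (diamonds), under another scaling, filter, tool or block (circles) and with 1 library left out (triangles), where open symbols mark an adjusted p of 0.05 or more. All points lie below 0, and open symbols occur only for MtrunA17Chr4g0025521, MtrunA17Chr3g0141941 and *MtBELL1-4*.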

How the data were processed

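A table of raw counts (whole reads per gene, not scaled) under MtrunA17r5.0-ANR gene IDs was deposited by the authors. A second deposited table holds a scaled signal, equal to the count over DESeq2's size factor. The submitters' processing notes name Trimmomatic, HISAT2, StringTie and DESeq. Versions, settings, strand and the treatment of reads shared by similar genes are not given in the sources used here. R108 reads were thus counted on gene models of another genotype, A17. Fold changes and p-values of the authors' own comparison in the second table were not used. Its symbols and descriptions gave the gene names.

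The test was that of edgeR 4.0.16 under R 4.3.3 (TMM, at least 10 counts in total, quasi-likelihood test on condition, two-sided, Benjamini-Hochberg over 24630 genes). The SE was taken from the test statistic. Alternatives were DESeq2 1.42.0, its size factors in edgeR, library size only, a minimum of 1 count, filterByExpr, a replicate block, an adjusted p under 0.01 and each library left out. Sums and counts without *MtKNOX10* or *MtKNOX8* were added after seeing the data. The fits were tested on simulated counts with 200 changed genes, all of them well counted. That simulation does not cover genes with few counts or a change as broad as that of these libraries.

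All BEL-like genes and all KNOX list genes were to be named, with *MtWOX9-1* and the 3 genes with a symbol most like the called member with the highest mean. Lists were formed by keywords in symbols and descriptions. Members, lists and rule were chosen with earlier results of these data known.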

Additional observations from a re-analysis of the deposited data

How the results depend on the processing

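Of 9645 genes called in edgeR's quasi-likelihood test, 3930 were left at an adjusted p under 0.01, 6432 genes were called by DESeq2 and 6668 with the replicate block. With 1 library left out the count lay between 5631 (without overexpressing replicate 1) and 8323 (without wildtype replicate 2), and it was 6298 without wildtype replicate 1. Of the 8 tested BEL-like genes, between 5 and 7 were called under every alternative, and 5 with the block. Same-numbered replicates did not deviate together (correlation -0.026 over genes), so the numbers were not taken as pairs. Of 79 BEL-like log2 fold changes under alternatives, 65 kept their side of the threshold, 13 lost the call, 1 gained it and 0 reversed. Only 26 of the other genes named were followed singly under the alternatives, and *MtWOX4*, *MtCNA1* and *MtCNA2* are among those that were not. Of 244 values of these 26 genes, 207 kept their side, 34 lost the call, 0 gained it and 3 reversed. All 3 were of *MtKNOX10*, at 0.12 with library size only, 0.075 without wildtype replicate 1 and 0.024 without overexpressing replicate 1, with a range from -0.11 to 0.075 over the libraries left out. Library size only moved the median of all genes to 0.18, against 0.039. Higher calls in the KNOX list went from 4 to 0 with DESeq2, a minimum of 1 count, the block and an adjusted p under 0.01, and to 1 with filterByExpr. The causes were not tested. The depth limits what can be said of the 4 low-count members and the 4 at 0, and why their counts were low was not tested.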
